A study of Homo sapiens with 60 samples.

Results

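Zizyphi Fructus is the dried jujube fruit of East Asian herbal medicine. The comparison set its 70% ethanol extract at the high dose of 500 µg/mL against the low dose of 20 µg/mL, by RNA sequencing of SW1783, an established human astrocytoma line grown in L-15 (Leibovitz) with serum. Exposure lasted 24 h. The members were chosen by their labels: 2 high-dose and 2 low-dose libraries (replicates 2 and 3 of each), 4 of the 60 libraries of the series, all carrying set number 11 in their names. Also used were 2 medium-dose Zizyphi libraries (100 µg/mL, set 11), the Citri Unshius Pericarpium ethanol extract at 500 and 20 µg/mL with 3 libraries each (dried mandarin peel, set 12), and 3 vehicle libraries. The vehicle was DMSO, at 0.1% in the sample labels and 2% in the series text. Other groups of ethanol extracts entered the fits only to help estimate the spread. The fit of set 11 held Coptidis Rhizoma at 14, 2.8 and 0.56 µg/mL. The test against Citri also held Cimicifugae Rhizoma at 500, 100 and 20 µg/mL and Citri at 100 µg/mL, both of set 12. All groups were treated for 24 h in the same line. Per the labels, the study compares doses of herbal extracts by the expression profiles they give, with each dose 1/5 of the one above it.

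L-15 medium supplies galactose in place of glucose. Cells sense intracellular hexose phosphates through the transcription factor MondoA (gene MLXIP), which pairs with MLX and binds carbohydrate response elements in the promoters of a pair of arrestin genes, TXNIP and ARRDC4. TXNIP binds thioredoxin and takes glucose transporters off the cell surface, and ARRDC4 is its close relative with the same effect on glucose uptake.

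The 4 libraries held 22957393 and 21998725 counts at the high dose and 27911643 and 21224842 at the low dose. No vehicle library carries set number 11, so set and treatment cannot be told apart against the vehicle, and vehicle values stand beside the others as levels only. Of 10 astrocyte markers 4 passed the filter on low counts (VIM, GJA1, SOX9 and SLC1A3), while GFAP, the defining one, was at 0.213 and 0.132 CPM (counts scaled by library size) at the high dose and 0.141 and 0.187 CPM at the low dose. ALDH1L1 and FABP7 had no count in these 4 libraries. The ribosomal RNA MT-RNR2 of the mitochondrion took 0.896 and 0.891% of counts at the high dose and 1.18 and 1.23% at the low dose, against 0.819 to 0.882% in the vehicle. Its part in the results was not tested. Over 16632 genes, the log2 fold change between doses had a Spearman correlation of -0.14 with the GC content of the longest transcript, a description across genes of the same libraries, and the difference between the high-dose replicates (3 minus 2) had one of -0.41.

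Between 500 and 20 µg/mL, 866 of 16744 tested genes were called (edgeR quasi-likelihood test, Benjamini-Hochberg adjusted p under 0.05), which is 5.17%. Of these, 358 genes were higher at the high dose (2.14%) and 508 lower (3.03%). Changes were small apart from a few genes: 91 of the called genes changed by over 1.5-fold and 31 by over 2-fold, and the median log2 fold change of all tested genes was 0.00. Without high-dose replicate 3, low-dose replicate 2 or low-dose replicate 3, the count was 284, 222 and 235 genes, while it was 862 without high-dose replicate 2. With 123 genes, 43 higher and 80 lower, the call held whichever of the 4 libraries was left out, and in a fit over 57 libraries of the whole series, 26 genes were called. Over 55 libraries, without 2 that stand apart from the rest, 1301 genes were called. In bulk RNA, fewer cells of a type and less RNA per cell cannot be told apart.

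**Figure D1:**
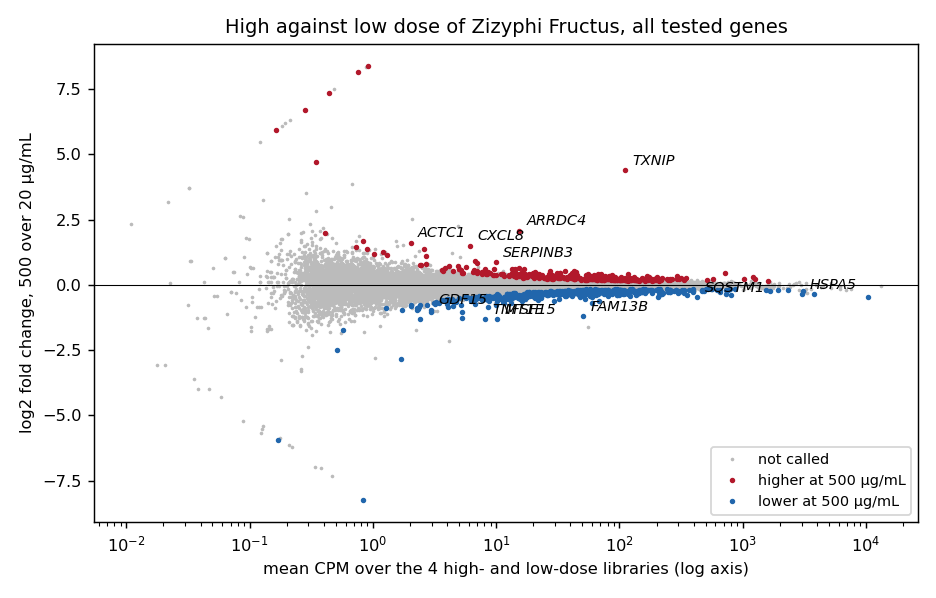
Each point is 1 tested gene, with the mean CPM over the 2 high-dose and 2 low-dose libraries on the x axis (log scale) and the log2 fold change of 500 over 20 µg/mL on the y axis, and red and blue mark the called genes that were higher and lower. TXNIP, at a log2 fold change of 4.38, stands apart among genes above 1 CPM, and the 8 called genes beyond 4 on either side with a mean of at most 0.912 CPM have fitted folds that rest on few reads and on the prior count.

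TXNIP rose 20.8-fold. It was at 210 and 217 CPM in the high-dose libraries, against 10.6 and 9.78 CPM in the low-dose libraries. Medium-dose libraries held 13.8 and 14.5 CPM and the vehicle 8.55 ± 0.61 CPM (SD, n = 3). The high dose lay far above the other 3 groups. The log2 fold change was 4.38 ± 0.07 (standard error, adjusted p = 3.24e-16), and high against medium gave 3.91 ± 0.07 (adjusted p = 1.02e-15). Medium against low gave 0.46 ± 0.09 and did not pass (adjusted p = 0.349), although both medium-dose libraries lay above both low-dose ones.

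ARRDC4 rose 4.21-fold. The high-dose libraries held 25.2 and 24.6 CPM, against 6.05 and 5.76 CPM in the low-dose libraries. The medium dose (6.05 and 6.31 CPM) and the vehicle (5.89 ± 0.56 CPM, n = 3) lay close to the low dose, and the high dose stood apart from all of them. The log2 fold change was 2.07 ± 0.10 for high against low (adjusted p = 2.95e-09) and 0.06 ± 0.11 for medium against low (adjusted p = 0.99). TXNIP and ARRDC4 were called in each of the 14 alternative fits tried, with log2 fold changes of 4.33 to 4.45 and 2.04 to 2.11.

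Both genes are shown with the 300 bases around their RefSeq start site (GRCh38.p14, 250 before and 50 after), because MondoA is known to act on the promoters of both. TXNIP lies at chr1:145992435-145996600 on the minus strand and its window at chr1:145996530-145996829. ARRDC4 lies at chr15:97960698-97973838 on the plus strand and its window at chr15:97960453-97960752. Capitals mark the match to the carbohydrate response element (CACGNG, any 5 bases and CACGNG) in TXNIP and to the E-box CACGTG in ARRDC4, both searched on either strand.
TXNIP promoter: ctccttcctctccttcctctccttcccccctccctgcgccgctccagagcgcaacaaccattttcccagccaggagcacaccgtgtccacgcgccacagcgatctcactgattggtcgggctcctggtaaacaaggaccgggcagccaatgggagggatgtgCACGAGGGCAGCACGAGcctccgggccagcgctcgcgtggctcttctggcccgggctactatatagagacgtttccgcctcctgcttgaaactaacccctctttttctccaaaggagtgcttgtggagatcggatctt
ARRDC4 promoter: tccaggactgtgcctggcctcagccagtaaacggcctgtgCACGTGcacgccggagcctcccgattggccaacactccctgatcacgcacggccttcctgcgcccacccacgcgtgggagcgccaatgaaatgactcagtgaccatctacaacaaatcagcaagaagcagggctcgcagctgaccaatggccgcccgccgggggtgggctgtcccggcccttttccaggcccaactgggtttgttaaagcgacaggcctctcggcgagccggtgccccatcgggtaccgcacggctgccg
The element lies at bases -88 to -72 from the TXNIP start and is found in 0.057% of 35116 promoter windows of this length. The ARRDC4 window holds no match to it and has the shorter E-box at bases -210 to -205, which 7.26% of windows hold. The TXNIP window holds no E-box, so neither motif occurs in both windows. The second TXNIP window in the table, around another start, was not used. A match is a run of letters and not a measured binding site.

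Of 7 tested MondoA and sugar-response genes, 2 rose (TXNIP and ARRDC4), 0 fell and 5 did not pass, where 2.14% of all genes rose. Among those that did not pass, ARRDC3 (0.04 ± 0.06), a relative that acts on other receptors, was at 85.2 and 93.5 CPM at the high dose and 83.4 and 90.6 CPM at the low dose. ARRDC2 (0.15 ± 0.13), KLF10 (0.12 ± 0.05), a repressor that glucose induces, and HBP1 (0.16 ± 0.07) did not pass. MLXIPL, which encodes the related sensor ChREBP, was near 0 CPM in all 4 libraries. The sensor genes MLXIP (-0.06 ± 0.07) and MLX (-0.03 ± 0.05) did not pass either (0 of 3 tested sensor genes were called), with MLXIP at 57.1 and 52.1 CPM at the high dose and 55.3 and 58.7 CPM at the low dose. Of 23 tested genes of sugar entry and of galactose and fructose use, 0 rose and 1 fell, the glucose transporter SLC2A1 (-0.24 ± 0.05, adjusted p = 0.0092), and of 19 glycolytic genes 0 rose and 1 fell, PFKFB4 (-0.30 ± 0.06, adjusted p = 0.0147). The SLC2A1 call was lost in 2 and the PFKFB4 call in 3 of the 4 omissions of a library.

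**Figure D2:**
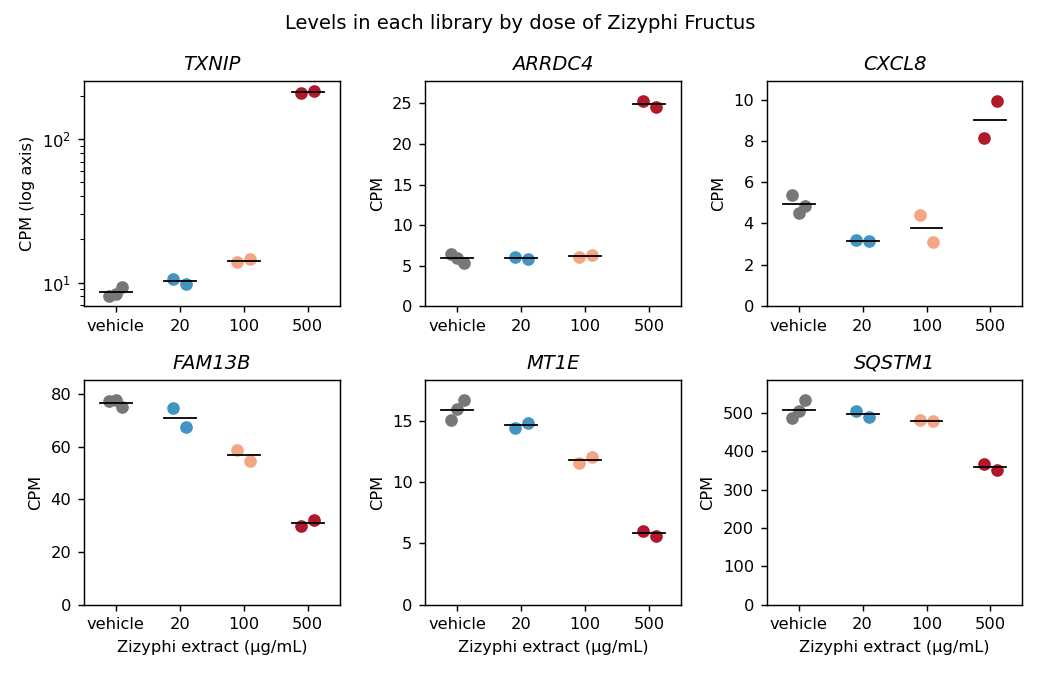
Points are single libraries (3 vehicle, 2 at each dose of Zizyphi extract in µg/mL), lines are group means, and the y axis is CPM, on a log scale for TXNIP and from 0 for the other genes. TXNIP, ARRDC4 and CXCL8 were highest and FAM13B, MT1E and SQSTM1 lowest at 500 µg/mL, where the libraries lay outside all others of their panel. The genes were named for changes between high and low dose, so this separation is partly built in.

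The cytokine gene CXCL8 (interleukin 8) was at 8.14 and 9.90 CPM at the high dose, against 3.22 and 3.14 CPM at the low dose (log2 1.5 ± 0.15, adjusted p = 5.01e-05). The cardiac actin gene ACTC1 was at 3.11 and 3.04 CPM at the high dose and at 1.1 and 0.89 CPM at the low dose (1.61 ± 0.28, adjusted p = 0.00352). SERPINB3, a protease inhibitor whose reads may be split with its near copy SERPINB4, was at 12.4 and 13.2 CPM at the high dose and 7.14 and 6.93 CPM at the low dose (0.86 ± 0.11, adjusted p = 0.00046). FAHD2B (1.1 ± 0.18), which has a near copy in FAHD2A, and the transcript AL596244.1 (0.90 ± 0.13) rose as well, with adjusted p of 0.00317 and 0.00135. Rises and falls are ranked among called genes with a symbol, a mean of at least 1 CPM and no overlap between doses. The remaining members of the 12 largest rises were 4 transcripts that encode no protein, KLHL7-DT, FOSL2-AS1, LINC01119 and KIF9-AS1, and CLDN4, a tight junction claudin. Their log2 fold changes ran between 0.77 for KIF9-AS1 and 1.27 for KLHL7-DT, and each lost its call without at least 1 of the 4 libraries. Reads of the antisense transcripts may not be separate from those of their partners, since the strand setting is not known.

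FAM13B was the best expressed of the 12 largest falls, at 29.7 and 32.0 CPM at the high dose, against 74.6 and 67.5 CPM at the low dose. It fell 2.31-fold (log2 -1.21 ± 0.07, adjusted p = 1.87e-07). Its medium-dose libraries, at 58.8 and 54.5 CPM, lay between the others, and high against medium also passed (-0.88, adjusted p = 1.86e-05). The metallothionein MT1E, a metal-binding protein whose reads may be shared with its family, was at 6.01 and 5.63 CPM at the high dose and 14.4 and 14.8 CPM at the low dose (-1.33 ± 0.12, adjusted p = 1.2e-05). TNFSF15, a cytokine of the TNF family, was at 4.65 and 4.75 CPM at the high dose and at 12.3 and 11.0 CPM at the low dose (-1.31 ± 0.11, adjusted p = 6.43e-06). In both genes the high-dose libraries also lay under the medium-dose and vehicle libraries. No overlap with the low dose was a condition of the choice.

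PPARGC1A, the coactivator of mitochondrial biogenesis, was at 1.32 and 1.45 CPM at the high dose and 3.71 and 3.14 CPM at the low dose (-1.31 ± 0.20, adjusted p = 0.00217). LGR6, an R-spondin receptor, fell by 1.26 ± 0.20 on the log2 scale (2.77 and 3.43 CPM at the high dose, 6.96 and 7.95 CPM at the low dose, adjusted p = 0.00232). LRRN3, a leucine-rich repeat protein of neurons, fell by 1.05 ± 0.17, with adjusted p = 0.00263. GDF15, a stress-induced cytokine, was at 2.17 and 1.85 CPM at the high dose and 3.96 and 3.84 CPM at the low dose (-0.95 ± 0.14, adjusted p = 0.00172). The other members of the 12 largest falls, ADGRF4, LRRC34, NRXN3, FPR1 and NTM, were between -1.05 and -0.87 and lost their call without at least 1 of the libraries.

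**Figure D3:**
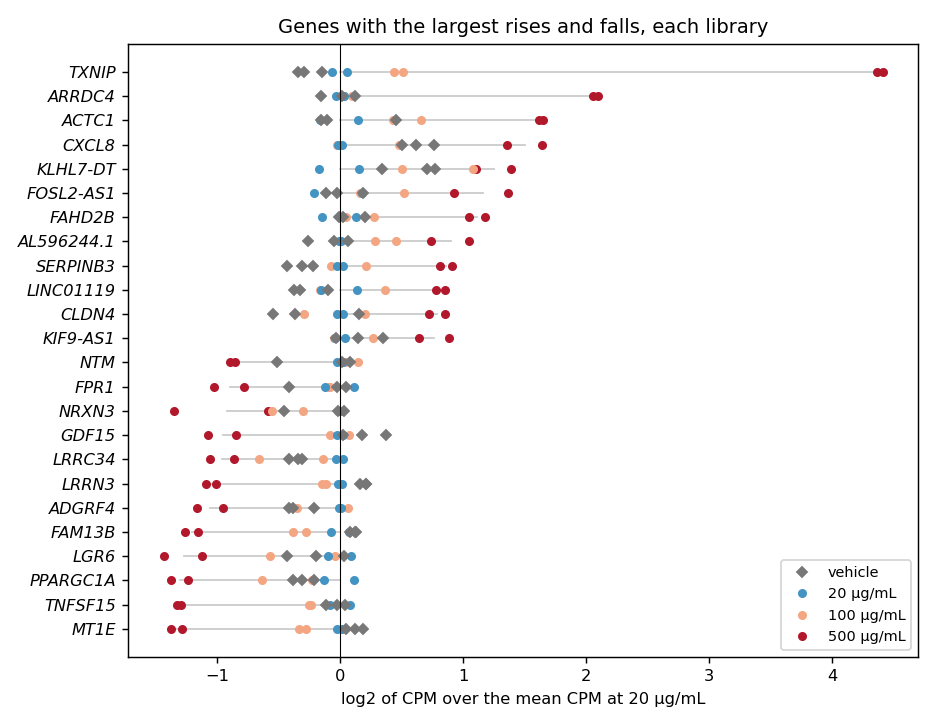
Each row is 1 of the 12 largest rises (top) or 12 largest falls (bottom), each point is 1 library, and the x axis is the log2 of its CPM over the mean CPM at 20 µg/mL. In all 24 genes both libraries at 500 µg/mL (red) lie beyond both at 100 µg/mL (orange) and all 3 vehicle libraries (grey diamonds), which sit closer to 0. The genes were chosen for large changes with no overlap between high and low dose, so this separation is partly built in. Its share over all genes was not counted.

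High against medium, 500 against 100 µg/mL, called 455 of 16744 genes (2.72%), 179 higher (1.07%) and 276 lower (1.65%). Of the 12 largest rises 9 were called there, and of the 12 largest falls 10, which is a count over genes that were chosen for their high-dose values. Medium against low called 0 genes (0%) with edgeR and 0 with the DESeq2 Wald test, while 939 genes (5.61%) had an unadjusted p under 0.05. The counts for high against medium moved with single libraries, to 47 without high-dose replicate 3 and 54 without medium-dose replicate 3.

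Several chaperones of the endoplasmic reticulum (ER) fell by small amounts. Of 19 tested members, 0 rose, 8 fell and 11 did not pass, with a median log2 fold change of -0.15 against 0.00 for all genes, where 3.03% of all genes fell. HSPA5 (BiP), the main chaperone of this compartment and sensor of unfolded protein, was at 2674 and 2641 CPM at the high dose and at 3452 and 3383 CPM at the low dose. It fell 1.29-fold (log2 -0.36 ± 0.04, adjusted p = 6.78e-05). Its medium-dose libraries held 3400 and 3286 CPM, and high against medium passed (-0.33, adjusted p = 0.000359). The disulfide isomerase PDIA4 was at 609 and 580 CPM at the high dose and 709 and 726 CPM at the low dose (-0.27 ± 0.04, adjusted p = 0.00172). The calcium-binding lectin CALR, at 1511 and 1555 CPM at the high dose and 1791 and 1778 CPM at the low dose, had a log2 fold change of -0.22 ± 0.04 (adjusted p = 0.00551). SDF2L1 (-0.30 ± 0.06), CRELD2 (-0.26 ± 0.07), HYOU1 (-0.21 ± 0.04), HSP90B1 (-0.18 ± 0.04) and PDIA6 (-0.17 ± 0.04) made up the rest. Of the 8, HSPA5 and PDIA4 passed whichever library was left out.

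The unfolded protein response acts on such genes through the ER stress element, so the promoter windows of HSPA5 (chr9:125241294-125241593, minus strand) and CALR (chr19:12938359-12938658, plus strand, RefSeq GRCh38.p14) are shown. Capitals mark the match to the element (CCAAT, any 9 bases and CCACG) on either strand.
HSPA5 promoter: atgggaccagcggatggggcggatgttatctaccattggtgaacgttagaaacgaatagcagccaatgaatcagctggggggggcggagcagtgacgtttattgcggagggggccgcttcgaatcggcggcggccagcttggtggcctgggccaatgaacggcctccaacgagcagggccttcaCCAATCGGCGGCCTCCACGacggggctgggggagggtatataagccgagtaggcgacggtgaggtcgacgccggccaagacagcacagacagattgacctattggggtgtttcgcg
CALR promoter: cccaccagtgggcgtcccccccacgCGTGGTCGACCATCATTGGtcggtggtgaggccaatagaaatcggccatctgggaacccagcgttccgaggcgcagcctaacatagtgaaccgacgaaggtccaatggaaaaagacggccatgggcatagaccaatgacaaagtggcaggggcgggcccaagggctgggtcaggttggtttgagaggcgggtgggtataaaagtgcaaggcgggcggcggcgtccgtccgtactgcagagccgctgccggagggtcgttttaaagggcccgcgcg
Among the windows of the list, 4 of the 8 genes that fell and 1 of the 10 others held this element (HSP90B1 and CRELD2 besides the pair shown, and XBP1 among the others), and 0.0769% of all 35116 windows did. Of HSPA5 and PDIA4, whose calls held without each library, only HSPA5 has the element. The 18 windows are of genes from a list made for this pathway, and the counts are a description.

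Of 24 tested ATF4 targets, genes of the integrated stress response, 1 rose, 5 fell and 18 did not pass (median -0.08), while 2.14% of all genes rose and 3.03% fell. GDF15 is described above. ATF4 itself, the transcription factor of this response, was at 96.6 and 91.6 CPM at the high dose and 109 and 112 CPM at the low dose (-0.23 ± 0.05, adjusted p = 0.0147). The amino acid exchanger subunits SLC7A5 (-0.27 ± 0.05, adjusted p = 0.00916) and SLC3A2 (-0.18 ± 0.05, adjusted p = 0.0353) fell, as did NUPR1 (-0.46 ± 0.11, adjusted p = 0.0269). DDIT4 (0.22 ± 0.05, adjusted p = 0.0188) rose and the pro-death factor DDIT3 (CHOP), at 20.3 and 21.5 CPM at the high dose and 22.8 and 22.5 CPM at the low dose, did not pass (-0.12 ± 0.10). Apart from GDF15, each of these calls was lost without at least 1 library. Of 11 amino acid transporters 0 rose, 3 fell and 8 did not pass (median -0.15), the pair of exchanger subunits included. The third, SLC38A1, a glutamine transporter, was at 89.1 and 98.4 CPM at the high dose and 118 and 119 CPM at the low dose (-0.34 ± 0.06, adjusted p = 0.00305).

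Some genes of lipid synthesis fell and a few lipid-induced genes rose. Of 13 tested fatty acid synthesis genes 0 rose, 4 fell and 9 did not pass (median -0.09), and of 25 cholesterol synthesis genes 0 rose, 4 fell and 21 did not pass (median -0.04), where 2.14% of all genes rose and 3.03% fell. SREBF1, the transcription factor of fatty acid synthesis, was at 45.8 and 40.7 CPM at the high dose and 56.0 and 61.0 CPM at the low dose (-0.43 ± 0.07, adjusted p = 0.00317). The stearoyl-CoA desaturase SCD was at 221 and 224 CPM at the high dose, against 266 and 279 CPM at the low dose (-0.29 ± 0.05, adjusted p = 0.00198). LSS, the lanosterol synthase, was at 52.0 and 50.2 CPM at the high dose and 67.2 and 66.2 CPM at the low dose (-0.38 ± 0.05, adjusted p = 0.000448). The calls of these 3 genes held without each library in turn. The vehicle level of SREBF1, 47.1 ± 2.65 CPM (n = 3), was nearer to the high dose. FADS2 (-0.30), FADS1 (-0.25), INSIG1 (-0.22) and SREBF2 (-0.20) fell with calls that did not. HMGCS1 (-0.11 ± 0.07), a textbook target of SREBF2, did not pass. Of 13 tested PPAR lipid targets 3 rose, 0 fell and 10 did not pass: ANGPTL4, an inhibitor of lipoprotein lipase, was at 18.3 and 18.8 CPM at the high dose and 11.8 and 12.1 CPM at the low dose (0.63 ± 0.08, adjusted p = 0.000448), but the vehicle, at 17.0 ± 2.03 CPM (n = 3), was near the high dose. PLIN2 (0.19 ± 0.05) and ETFDH (0.32 ± 0.08) rose with calls lost in 3 of the 4 omissions, with the PLIN2 vehicle level (69.7 ± 3.38 CPM, n = 3) at that of the high dose, and PDK4 did not pass (0.64 ± 0.25, adjusted p = 0.159). Of 7 LXR targets 0 rose and 1 fell, the cholesterol exporter ABCA1 (-0.33 ± 0.07, adjusted p = 0.0107), a call that at least 1 omission ended.

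Most genes on the mitosis list rose, by small amounts. Of 20 tested mitotic genes, 12 rose, 0 fell and 8 did not pass, with a median log2 fold change of 0.18 against 0.00 for all genes, where 2.14% of all genes rose. The cyclin CCNB2 was at 68.4 and 67.8 CPM at the high dose and 56.4 and 58.1 CPM at the low dose (0.25 ± 0.05, adjusted p = 0.00717), and the spindle kinesin KIF23 at 107 and 116 CPM at the high dose and 93.9 and 98.2 CPM at the low dose (0.22 ± 0.05, adjusted p = 0.0147). BUB1, a checkpoint kinase, rose by 0.28 ± 0.05 (adjusted p = 0.00802). MKI67, the proliferation marker, was at 361 and 349 CPM at the high dose and 296 and 322 CPM at the low dose (0.20 ± 0.05, adjusted p = 0.033). Of 23 DNA replication genes 1 rose, 0 fell and 22 did not pass. None of the 12 mitotic calls held without each library in turn. The list had 8 calls without high-dose replicate 2, 1 without high-dose replicate 3, 0 without low-dose replicate 2, 3 without low-dose replicate 3, 4 over the Zizyphi libraries alone and 0 over 57 libraries.

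Among xenobiotic and antioxidant genes a few rose. Of 6 tested aryl hydrocarbon receptor targets, 3 rose, 0 fell and 3 did not pass (median 0.27), where 2.14% of all genes rose. The quinone reductase NQO1, also a target of NRF2, was at 178 and 190 CPM at the high dose and 151 and 147 CPM at the low dose (0.30 ± 0.05, adjusted p = 0.00363). CYP1B1 (0.29 ± 0.05, adjusted p = 0.00516) and TIPARP (0.26 ± 0.06, adjusted p = 0.0148) rose with calls that 2 of the 4 omissions ended, and CYP1A1, the classic target, was near 1 CPM in all 4 libraries and did not pass (0.23 ± 0.31). Of 23 NRF2 targets 3 rose, 1 fell and 19 did not pass, with 3.03% of all genes falling. The thioredoxin reductase TXNRD1, partner of the protein that TXNIP binds, was at 313 and 341 CPM at the high dose, against 257 and 263 CPM at the low dose (0.33 ± 0.05, adjusted p = 0.00172), with the vehicle at 309 ± 6.80 CPM (n = 3). SRXN1 rose (0.20 ± 0.05) and the haem oxygenase HMOX1 fell (-0.28 ± 0.06, adjusted p = 0.00866), both with calls lost without some libraries.

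SQSTM1 (p62), the receptor that carries ubiquitinated cargo to autophagy and binds KEAP1, was at 367 and 350 CPM at the high dose and 505 and 489 CPM at the low dose. Medium dose (481 and 479 CPM) and vehicle (508 ± 23.4 CPM, n = 3) lay above the high dose as well, and the log2 fold change was -0.47 ± 0.04 (adjusted p = 1.2e-05). It belongs to a list of 21 tested lysosome genes, of which 0 rose, 3 fell and 18 did not pass, where 3.03% of all genes fell, the others being FLCN (-0.35 ± 0.06) and CTSD (-0.25 ± 0.06), with calls that 1 or more omissions ended. Of 5 tested metallothioneins 0 rose, 2 fell and 3 did not pass, with all 5 log2 fold changes negative (median -0.62). Besides MT1E this was MT1X (8.23 and 7.79 CPM at the high dose, 11.5 and 13.3 CPM at the low dose, -0.62 ± 0.12, adjusted p = 0.00931), whose call was lost without 2 of the libraries.

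Some matrix and lineage genes fell. Of 23 tested extracellular matrix and TGF-beta genes 0 rose, 6 fell and 17 did not pass (median -0.12), where 3.03% of all genes fell. The matricellular protein THBS2 was at 195 and 200 CPM at the high dose and 235 and 236 CPM at the low dose (-0.25 ± 0.04, adjusted p = 0.00354), and ACTA2 (-0.31), COL3A1 (-0.26), COL1A2 (-0.21), COL5A1 (-0.20) and TNC (-0.15) had calls that some omissions ended. The astrocyte and cartilage factor SOX9 was at 56.3 and 52.8 CPM at the high dose and 68.6 and 73.0 CPM at the low dose (-0.37 ± 0.06, adjusted p = 0.00232), 1 of 4 tested astrocyte markers. Of 6 tested neuron markers 0 rose, 3 fell and 3 did not pass, namely SYT1 (-0.40 ± 0.06), NEFL (-0.80 ± 0.15) and MAP2 (-0.55 ± 0.11), of which SYT1 passed whichever library was left out. The summed level of the 9 neuron markers was 176 and 164 CPM at the high dose and 176 and 178 CPM at the low dose, that of the 7 endothelial markers 34.7 and 33.8 CPM at the high dose and 30.6 and 29.9 CPM at the low dose, and that of the 9 microglial and leukocyte markers 175 and 155 CPM at the high dose and 180 and 203 CPM at the low dose. Of 3 tested leukocyte markers 0 rose and 1 fell, PTPRC (-0.49 ± 0.11), and of 3 epithelial markers 0 rose and 1 fell, KRT18 (-0.19 ± 0.05), both with calls that some omissions ended, while 0 of 4 oligodendrocyte and 0 of 3 endothelial markers were called. The part of other cell types in the results was not tested.

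The remaining lists had 1 to 3 called members each, beside 2.14% of all genes that rose and 3.03% that fell, and several of these shares lie near that background. Of 13 tested feedback genes of the MAPK pathway 2 rose and 0 fell, and of 14 immediate early genes 1 rose and 0 fell, EGR1 (0.45 ± 0.10, adjusted p = 0.0205, lost in 3 omissions). DUSP6, the phosphatase that feeds back on ERK, was at 31.7 and 32.2 CPM at the high dose and 21.2 and 23.3 CPM at the low dose (0.53 ± 0.07, adjusted p = 0.000597). The clock gene PER1 rose (39.9 and 36.1 CPM at the high dose, 27.8 and 28.6 CPM at the low dose, 0.43 ± 0.06, adjusted p = 0.00135), 1 of 2 rises and 1 fall among 9 glucocorticoid targets, and of 14 clock genes it rose while BMAL1 (-0.48 ± 0.09, adjusted p = 0.00866, lost in 2 omissions) fell. The vehicle level of BMAL1, 7.29 ± 0.56 CPM (n = 3), was that of the high dose (7.51 and 7.57 CPM) and not of the low dose (10.9 and 10.1 CPM). CRISPLD2, a glucocorticoid-induced secreted protein, fell (-0.34 ± 0.05, adjusted p = 0.00103), as did PHLDA3 (-0.41 ± 0.06, adjusted p = 0.00195), 1 of 19 p53 targets of which 1 rose and 2 fell, while the p53 target CDKN1A (0.07 ± 0.07) and the cytokine IL6 (0.19 ± 0.18) did not pass. Of 17 tested NF-kB genes 2 rose, 0 fell and 15 did not pass: CXCL8, above, and VCAM1 (0.54 ± 0.15, adjusted p = 0.0463), whose call each omission ended. Of 21 tested interferon response genes 0 rose, 2 fell and 19 did not pass, IFIT3 (-0.47 ± 0.08) and OASL (-0.40 ± 0.11), both with calls that 1 or more omissions ended. Of 13 heat shock genes 2 rose and 1 fell, among them HSP90AA1, at 1325 and 1407 CPM at the high dose and 1169 and 1162 CPM at the low dose (0.23 ± 0.04, adjusted p = 0.0063, lost in 3 of the 4 omissions). Of 15 hypoxia targets 2 rose and 0 fell, NDRG1 (0.32 ± 0.07, adjusted p = 0.00997) and DDIT4, and of 13 mitochondrially encoded respiratory genes 0 rose and 1 fell, MT-CYB (-0.34 ± 0.08, adjusted p = 0.0296), all with calls that some omissions ended. The DDIT4 vehicle level, 80.3 ± 1.24 CPM (n = 3), was that of the high dose. For MT-CYB the vehicle mean of 3152 CPM was nearer to the high-dose mean (3359 CPM) than to the low-dose mean (4255 CPM). The vehicle mean was placed for the 105 called genes that are in a list or named by rule. It was nearer to the low-dose mean in 89 and nearer to the high-dose mean in 16, among them CALR, HSP90B1, FADS2, SRXN1, PFKFB4 and COL5A1. The 105 genes are a chosen part of the 866 called genes, and the rest were not placed. Since no vehicle library is in set 11, these positions are levels only.

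**Figure D4:**
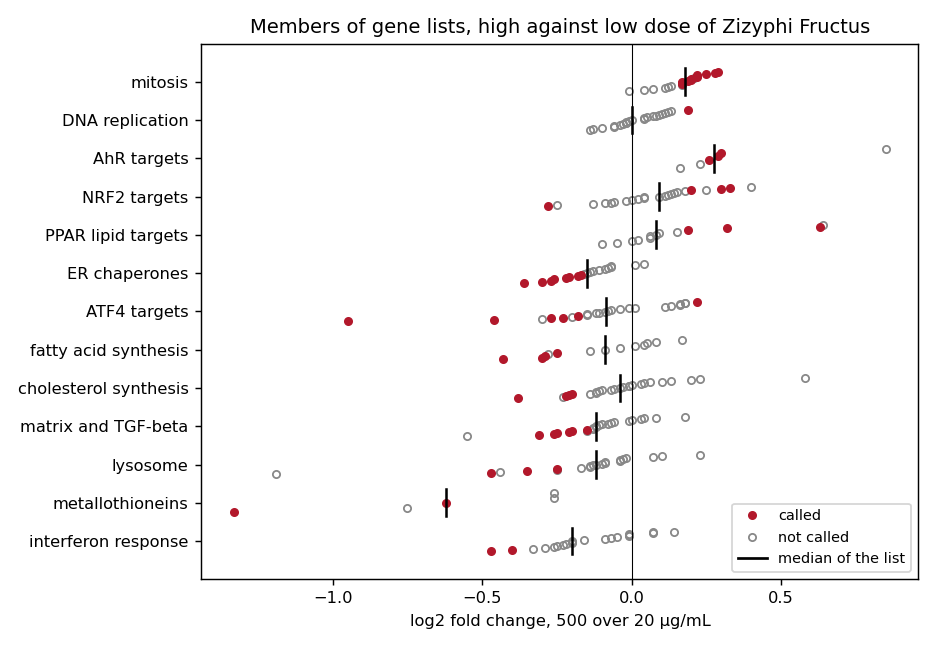
Each row is 1 of 13 gene lists and each point a tested member, placed by its log2 fold change of 500 over 20 µg/mL, filled red where called, with the median of the list as a black line. Mitosis genes lie mostly right of 0 (median 0.18) and ER chaperones mostly left (median -0.15), and the 7 genes of the MondoA list, which holds TXNIP and ARRDC4, are left out because of the axis range.

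The Citri Unshius Pericarpium extract had the same pair of doses in its own set, which allows a test of whether the dose effect differed between extracts. It did for 24 of 17387 genes (0.138%), 15 with a higher difference for Zizyphi (0.0863%) and 9 with a lower one (0.0518%), while 1304 genes (7.5%) had an unadjusted p under 0.05. Citri itself changed 2298 genes between its doses (13.2%), 1041 higher (5.99%) and 1257 lower (7.23%). That count comes from the fit of 30 libraries, with 3 libraries per Citri dose. The 866 Zizyphi genes come from the fit of 12 libraries, with 2 per dose, so the counts do not rank the extracts. TXNIP was at 127, 142 and 123 CPM at the high dose of Citri and 9.86, 10.4 and 10.3 CPM at its low dose, a log2 fold change of 3.68 ± 0.08. The dose effect of Zizyphi was larger by 0.70 ± 0.12 (adjusted p = 0.00938), a difference that was not called without high-dose replicate 3, low-dose replicate 2 or low-dose replicate 3 of Zizyphi (adjusted p of up to 0.134). ARRDC4 rose by 1.56 ± 0.09 with Citri, and its difference of 0.51 ± 0.14 did not pass (adjusted p = 0.233).

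SQSTM1 differed most plainly among the named genes. With Citri it was at 534, 528 and 548 CPM at the high dose and 511, 500 and 538 CPM at the low dose (0.06, adjusted p = 0.327), and the Zizyphi dose effect was lower by 0.53 ± 0.06 (adjusted p = 3.45e-06), called whichever of the 10 libraries compared was left out. GDF15 did not change with Citri beyond the threshold (0.06, adjusted p = 0.797), a difference of -1.01 ± 0.19 (adjusted p = 0.0126) that 3 of the 10 omissions ended. HSP90AB1, a cytosolic chaperone, was at 1658 and 1715 CPM at the high dose of Zizyphi and 1509 and 1504 CPM at its low dose (0.16 ± 0.04, adjusted p = 0.0266, a call lost in 3 of the 4 omissions), and at -0.06 with Citri (adjusted p = 0.143). The effects differed by 0.22 ± 0.04 (adjusted p = 0.0139), with 4 of the 10 omissions ending the call. Of the 24 largest Zizyphi changes, TXNIP and GDF15 were called as different from Citri, and for the other 22 the difference did not pass.

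**Figure D5:**
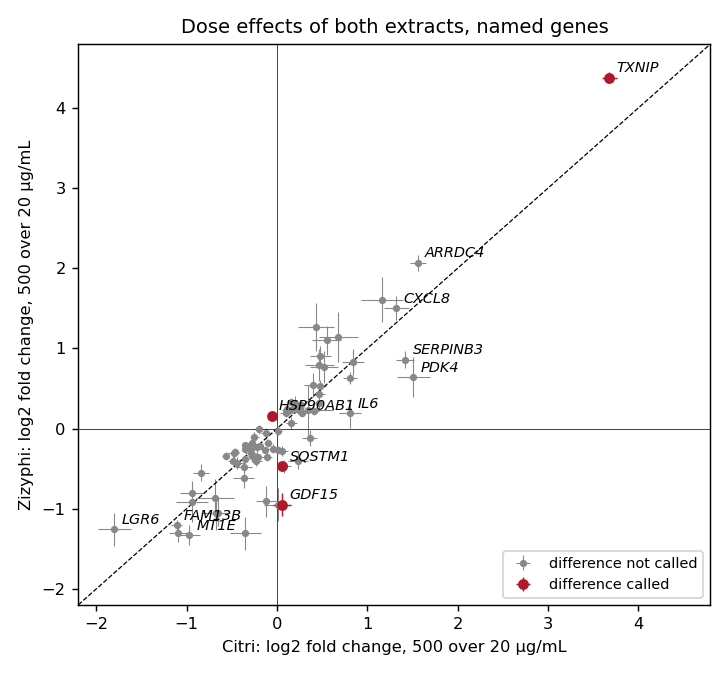
Points are the named genes, with the log2 fold change of 500 over 20 µg/mL for Citri on the x axis and for Zizyphi on the y axis, bars are standard errors, and the dashed line marks equal effects. The genes whose difference was called, in red, are TXNIP, above the line, HSP90AB1, and SQSTM1 and GDF15, below it.

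Most of the 24 largest Zizyphi changes had the same sign with Citri. All 12 of the largest Zizyphi rises had a positive value with Citri, and 10 were called there. Of the 12 largest falls, 10 had a negative value with Citri and 8 were called there, the exceptions in sign being GDF15 and LRRC34 (0.01). PPARGC1A was at -0.35 with Citri and did not pass there (adjusted p = 0.207), with no called difference between extracts (-0.97, adjusted p = 0.314). The genes were chosen for Zizyphi. Over all genes, 5.99% were called higher and 7.23% lower with Citri, which is the background for the counts of calls, and none is given for the counts of signs.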

How the data were processed

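RNA of 4 Zizyphi Fructus libraries (high and low dose, 2 each) was compared. The authors deposited expected counts per gene, not normalized. Per the submitters' processing notes the tools were RSEM 1.3.3, STAR 2.7.3a, Trim Galore 0.6.5 and FastQC 0.11.9, and the build was hg38. Neither the annotation nor the strand setting is stated. The kit named in the labels marks strand, and sense and antisense partners may still share reads. Of 60675 genes, 23499 had no count in any of 60 libraries, and 9.184% of values were not whole, so values were rounded. Replicates differed beyond sampling noise. The labels do not say that they were separate cultures, so the spread behind each p-value may be technical.

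Genes passing filterByExpr at a minimum count of 10 were tested with edgeR 4.0.16 (glmQLFit and glmQLFTest, R 4.3.3) over the 12 libraries of set 11 (Zizyphi Fructus and Coptidis Rhizoma, 6 groups, 6 residual degrees of freedom, no replicate block), with TMM factors taken over all 60 libraries. Benjamini-Hochberg adjustment ran over all tested genes, and a gene is called at an adjusted p under 0.05. The test of Zizyphi against Citri Unshius Pericarpium used the 30 libraries of sets 11 and 12. CPM came from the rounded counts and TMM-scaled library sizes. Standard errors were taken from the fold change and its F statistic. The fit was tested on 5 simulated data sets with 200 changed genes each. It recovered 67.2% of 1.5-fold, 79.1% of 2-fold and 91.2% of 4-fold changes, and 4.47% of its calls were false. Spread in the simulation followed the fitted trend and was not particular to each gene, so these rates may not hold for the real data. Totals of the Zizyphi libraries ran from 19870669 to 27911643 counts.

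The comparison and the 34 gene lists were chosen with earlier results of these data known. The naming rule took genes with a symbol, a mean of at least 1 CPM, a call and no overlap between doses: the 12 largest rises and 12 largest falls, for each list with at least 2 called members the 3 of smallest p, and 19 genes whatever their values. Other members of a list are named with its counts, and genes outside both were chosen after their values were seen. A few named genes are not reported here. Gene positions are from GENCODE v29 (GRCh38), which held 57055 of the genes, and symbols were updated from a current table. Promoters are from RefSeq (GRCh38.p14). Alternatives were the DESeq2 1.42.0 Wald test and, within edgeR, size factors of the DESeq2 type (RLE), no filter and TMM over the fitted libraries. Others were different library sets, a replicate block, offsets by GC content, and leaving out 1 library at a time.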

Additional observations from a re-analysis of the deposited data

Results flagged for a closer look

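The dose effects of Zizyphi and Citri differed, by a test of the difference itself, for 4 named genes: SQSTM1 (-0.53), TXNIP (0.70), GDF15 (-1.01) and HSP90AB1 (0.22, on the log2 scale, Zizyphi minus Citri). Their levels are given with the comparison of the extracts. Among the 20 other genes that differed, the 3 with the smallest p were chosen after their values were seen.

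IL11, a cytokine of the IL-6 family, did not pass between the Zizyphi doses (63.5 and 62.9 CPM at the high dose, 71.6 and 68.5 CPM at the low dose, log2 -0.15, adjusted p = 0.134) and rose with Citri by 0.64 (138, 136 and 137 CPM at its high dose, 86.4, 87.5 and 89.8 CPM at its low dose). The difference was -0.79 ± 0.07 (edgeR adjusted p = 7.2e-08). KRT18, a keratin of simple epithelia, fell by 0.19 with Zizyphi and by 0.71 with Citri, a difference of 0.53 ± 0.07 (edgeR adjusted p = 6.16e-05). NPC1, the lysosomal cholesterol exporter, was at 0.12 with Zizyphi (adjusted p = 0.121) and 0.46 with Citri, a difference of -0.34 ± 0.05 (edgeR adjusted p = 0.00082). For these 3 genes the call held whichever of the 10 libraries compared was left out and was lost in the fit over 57 libraries.

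Of the 24 genes that differed, 9 were called between the Zizyphi doses and 21 between the Citri doses, beside 5.17% and 13.2% of all genes. The Zizyphi calls come from the fit of 12 libraries and the Citri calls from that of 30, so they are not on equal terms. In 12 of the 24 the values had opposite signs. Selection for a difference between extracts favours opposite signs, and no share over all genes is given for them. No group compared here has the 4 libraries that the check for single deviating values needs.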

How the results depend on the processing

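High against low called 866 genes. The count was 1367 with no filter on low counts, 564 with the DESeq2 Wald test, 26 over 57 libraries, 1301 over 55 libraries (without the 2 that stand apart, high-dose Aconiti replicate 1 and low-dose Yijung-tang replicate 1), 386 over the Zizyphi libraries alone, and 222 to 862 with 1 library left out. High against medium called 455 genes, and in those settings 965, 306, 10, 769 and 79, and 47 to 497 with 1 library left out. Medium against low called 0, with 145 unfiltered, 1 over 55 libraries, and 0 to 13 with 1 left out. The difference from Citri called 24, with 161 unfiltered, 54 by the Wald test, 0 over 57 libraries (313 at an unadjusted p under 0.05), 46 over 55, and 7 to 24 with 1 left out. Size factors of the DESeq2 type and TMM over the fitted libraries, both in edgeR, gave 879 and 887 genes for high against low. Of these, 838 and 860 were among the 866, as were 520 of the 564 and all 26. The cause of these moves was not tested.

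GC offsets and the crossed block were chosen after seeing the data. Offsets by GC content gave 1290, 679, 0 and 38 genes, and 839 of the 866 kept their call. Replicate numbers mark no shared batch in the labels, and deviations of same-numbered high and low libraries correlated at -0.135 of high and medium at -0.161 and of low and medium at 0.156, and among the Coptidis groups of the same fit the values ran from -0.046 to 0.108. A replicate block gave 719 genes for high against low, 306 for high against medium, 0 for medium against low and 45 for the difference from Citri. With the high-dose numbers crossed, the block gave 1276, 719, 0 and 49.

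The genes whose sign turned were not called in any setting. With 1 library left out, MLXIP ran from -0.13 to 0.01, CYP1A1 from -0.09 to 0.56, ARRDC3 from -0.03 to 0.11, ARRDC2 from -0.02 to 0.3 and MLXIPL from -0.45 to 0.48. The depth limits genes near 1 CPM, whose fitted folds rest on few reads.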

Other observations

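The families in this part were chosen by gene symbol after the values were seen, and their counts are descriptions. Genes of the hexosamine route, which makes the sugar donor for protein O-GlcNAc, and of sialic acid synthesis moved between doses in both directions: of 14 tested, 4 rose and 1 fell, beside 2.14% of all genes that rose and 3.03% that fell. UAP1, which makes UDP-GlcNAc, was at 129 and 139 CPM at the high dose and 102 and 102 CPM at the low dose (log2 0.39 ± 0.05, edgeR adjusted p = 0.00103). OGA, which removes O-GlcNAc, was at 176 and 195 CPM at the high dose and 151 and 147 CPM at the low dose (0.32 ± 0.05, edgeR adjusted p = 0.00317). OGT, which adds it, and GNE, the first enzyme of sialic acid synthesis, rose by 0.20 ± 0.04 and 0.23 ± 0.05, with calls lost in 3 of the 4 omissions of a library, and UAP1L1, a relative of UAP1, fell by 0.51 ± 0.08. GFPT1 (0.18 ± 0.06) and GFPT2 (0.04 ± 0.04), which open the route, did not pass.

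Of 28 tested Wnt ligands, receptors, extracellular modulators and PRICKLE genes of planar polarity 0 rose and 8 fell, beside 3.03% of all genes that fell. WNT5A was at 123 and 131 CPM at the high dose, against 157 and 159 CPM at the low dose (-0.31 ± 0.05, edgeR adjusted p = 0.00195), and the planar polarity gene PRICKLE1 at 12.5 and 13.1 CPM at the high dose, against 20.1 and 18.6 CPM at the low dose (-0.60 ± 0.09, edgeR adjusted p = 0.00127). LGR6, described above, is another, and DKK1 (-0.25 ± 0.05) and FZD1 (-0.30 ± 0.05) lost their calls in 2 of the 4 omissions. Of 16 Eph receptors and ephrins 0 rose and 3 fell, EFNB2 (-0.40 ± 0.05), EPHA3 (-0.44 ± 0.06) and EPHB2 (-0.32 ± 0.05), each called whichever library was left out. Of 83 cytosolic ribosomal protein genes 0 were called.

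Other genes with calls in each omission were FBXO32, the muscle ubiquitin ligase atrogin-1 and a FOXO target (53.6 and 54.2 CPM at the high dose, 82.6 and 84.0 CPM at the low dose, -0.63 ± 0.05, adjusted p of at most 0.0126 over 14 alternatives to the edgeR fit), and the retinaldehyde dehydrogenase ALDH1A3 (814 and 842 CPM at the high dose, 603 and 594 CPM at the low dose, 0.47 ± 0.04) with its antisense transcript ALDH1A3-AS1 (0.48 ± 0.06), whose reads may not be separate.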
